A study of Mus musculus with 10 samples.

Results

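The insulin-like growth factor (IGF) axis was followed as 10 genes of the deposited count table, which lists 25239 genes. They are the ligands Igf1 and Igf2, the receptors Igf1r and Igf2r, and the binding proteins Igfbp2, Igfbp3, Igfbp4, Igfbp5, Igfbp6 and Igfbp7. The members were listed by name, and earlier results of these data were known when the list was chosen. All 10 were found in the table by symbol, and all 10 passed the filter on low counts that left 18419 genes for testing.

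RNA was sequenced from testes of C57BL/6 mice at postnatal day 7 (P7) and postnatal day 4 (P4). The cKO libraries carry the genotype label Lsm7-flfl-stra8, and the WT libraries are labelled WT. Lsm7 encodes a subunit of the LSM rings that bind the ends of small nuclear RNAs and of messenger RNAs, and Stra8 is a gene that retinoic acid switches on in differentiating germ cells. The labels do not spell out the Cre driver, the age at which it acts, whether the WT animals carry any allele in common with the cKO animals, or whether animals were pooled. There were 3 cKO and 2 WT libraries at each age.

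IGF1 and IGF2 are secreted growth factors that signal through IGF1R, a receptor tyrosine kinase, while IGF2R has no kinase and carries IGF2 to lysosomes. The binding proteins hold the ligands outside the cell and lengthen or block their action, and proteases such as PAPPA release the ligands again. In the testis the axis acts on Sertoli cell number and on steroid-producing Leydig cells, and most of its members are made by somatic cells.

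Library totals lay between 28.8 and 41.8 M counted reads. The P7 WT libraries differed by no more than counting noise allows, with a chi-square per degree of freedom of 1.98 against 23.5 to 122.9 for other pairs of the same group. They were therefore counted as 1 sample, which left 9 samples and a single P7 WT value. P7 cKO library 1 stood apart from its group, with chi-square values of 117.3 and 122.9 against 23.5 between the other P7 cKO libraries. Lsm7 was at 45.2, 26.0 and 20.3 CPM (counts scaled to a common library total) in P7 cKO, 33.3 CPM in P7 WT, 44.9, 50.5 and 43.6 CPM in P4 cKO and 36.2 and 25.7 CPM in P4 WT. It was not lower in the cKO libraries at either age by edgeR (log2 fold change -0.13 at P7, adjusted p = 0.835, and 0.58 at P4, adjusted p = 0.215), so cKO below means the libraries with that label. The deposited table does not say which exons are deleted. The RNA also came from many cell types, as described next, so this whole-gene count is a weak check of the label. The cell type label reads germ cell, whereas the extraction text describes whole testis, and Sertoli, stromal and Leydig markers were abundant in every sample. The 10 Sertoli markers summed to 4704–4887 CPM in P7 cKO, 5024 CPM in P7 WT, 4580–5187 CPM in P4 cKO and 2936–3704 CPM in P4 WT. The 12 germ cell markers summed to 1142–1253 CPM, 1667 CPM, 260–266 CPM and 301–412 CPM in the same groups. In such bulk RNA, fewer cells of a type and less RNA per cell cannot be told apart.

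Igfbp5 and Igfbp2 lie beside each other on chromosome 1 of GRCm38, Igfbp5 on the minus strand at 72858065–72874865 with 4 merged exon blocks and Igfbp2 on the plus strand at 72824480–72852471 with 5. Their 3′ ends face each other across 5593 bases. Igfbp5 showed the widest range of the members over the 9 samples, with a highest CPM 17 times its lowest. Igfbp2 was the member called higher at P7 than at P4 in cKO. Igfbp4 (chromosome 11, 99041244–99052655, plus strand) and Igfbp6 (chromosome 15, 102144186–102149512, plus strand) were the members called higher in cKO at P4. The 250 bases before the RefSeq start of each (GRCm38.p6, gene strand, 5′ to 3′) are printed to set these pairs side by side, with capitals marking TATAAA, the letters of a TATA box, and GGGCGG, the letters of a GC box, on either strand. Capitals likewise mark CCAAT, which gives the CCAAT box its name, and CACGTG, which is 1 form of the E-box.
Igfbp5 (chr1:72874866-72875115, minus strand): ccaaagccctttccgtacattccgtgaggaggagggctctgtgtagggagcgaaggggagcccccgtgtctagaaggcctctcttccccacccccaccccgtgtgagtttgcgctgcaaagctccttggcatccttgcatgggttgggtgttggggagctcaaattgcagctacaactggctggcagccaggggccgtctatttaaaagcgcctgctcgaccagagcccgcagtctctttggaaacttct
Igfbp2 (chr1:72824230-72824479, plus strand): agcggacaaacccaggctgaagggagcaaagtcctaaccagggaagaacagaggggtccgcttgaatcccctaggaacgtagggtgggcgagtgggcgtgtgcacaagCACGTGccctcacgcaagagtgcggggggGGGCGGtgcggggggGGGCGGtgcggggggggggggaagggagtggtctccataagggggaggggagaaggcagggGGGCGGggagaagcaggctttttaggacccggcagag
Igfbp4 (chr11:99040994-99041243, plus strand): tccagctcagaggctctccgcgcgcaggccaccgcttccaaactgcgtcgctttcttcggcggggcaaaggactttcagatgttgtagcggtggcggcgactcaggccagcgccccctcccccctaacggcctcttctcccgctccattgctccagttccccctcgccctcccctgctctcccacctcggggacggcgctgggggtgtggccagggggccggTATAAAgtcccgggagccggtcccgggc
Igfbp6 (chr15:102143936-102144185, plus strand): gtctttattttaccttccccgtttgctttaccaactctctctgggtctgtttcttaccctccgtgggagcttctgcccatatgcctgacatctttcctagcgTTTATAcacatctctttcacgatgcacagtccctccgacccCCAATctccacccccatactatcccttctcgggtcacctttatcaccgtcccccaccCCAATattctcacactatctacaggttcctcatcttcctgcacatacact
The Igfbp5 window held none of these letters, the Igfbp2 window held 3 GC boxes and 1 E-box, the Igfbp4 window held 1 TATA box, and the Igfbp6 window held 1 TATA box on the opposite strand and 2 CCAAT boxes. No marked motif overlapped another in these windows. Igfbp2 has another RefSeq start, at 72825387, and the 250 bases before it, not printed, held none of these letters. RefSeq gave 14 start sites for the 10 members. TATAAA was in 2 of these 14 windows, those of Igfbp4 and Igfbp6, and in 12.4% of 32851 windows of all genes. GGGCGG was in 6 of 14 against 32.7% of all windows, CCAAT in 3 of 14 against 33.8%, and CACGTG in 2 of 14 against 6.02%. A match is a run of letters and was not tested as a binding site.

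On GRCm38 the other members lie at 87858265–87937047 of chromosome 10 (Igf1, plus strand), 142650768–142666816 of chromosome 7 (Igf2, minus strand) and 67952257–68233667 of the same chromosome (Igf1r, plus strand). Igf2r is at 12682406–12769706 of chromosome 17, Igfbp3 at 7206091–7213923 of chromosome 11 and Igfbp7 at 77349240–77408045 of chromosome 5, all on the minus strand. Values are of whole genes, with all exons counted together.

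Per length of exon, a binding protein was the most abundant transcript of the axis in all 4 groups. In P7 cKO, Igfbp7 was highest at 147.2 ± 16.4 CPM per kb (mean ± SD, n = 3), followed by Igfbp4 at 101.1 ± 19.3 and Igfbp6 at 63.6 ± 3.6 CPM per kb. Igfbp2, Igfbp3 and Igf2 came next at 37.7 ± 6.5, 32.7 ± 7.0 and 29.5 ± 5.9 CPM per kb, and their ranges overlapped. Igf1, Igf2r, Igf1r and Igfbp5 were lowest at 19.3 ± 3.2, 18.2 ± 2.4, 12.7 ± 0.8 and 12.03 ± 5.93 CPM per kb. The P7 WT sample also had Igfbp7 first at 149.0 and Igfbp4 second at 61.0 CPM per kb, but Igf1 next at 44.2 CPM per kb, then Igfbp3 at 34.7, Igfbp6 at 32.7, Igf2 at 20.1, Igf2r at 14.5, Igf1r at 13.6, Igfbp2 at 13.1 and Igfbp5 at 8.51 CPM per kb.

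In P4 cKO, Igfbp4 led at 305.6 ± 62.0 CPM per kb, with Igfbp7 at 213.8 ± 43.2 and Igfbp3 at 117.9 ± 21.1 CPM per kb (SD, n = 3). Igfbp6 at 88.6 ± 7.9, Igf2 at 84.4 ± 24.8, Igfbp5 at 76.3 ± 15.8 and Igf1 at 64.2 ± 13.9 CPM per kb came next, and each overlapped its neighbour in this order. In P4 WT, Igfbp7 at 134.6 ± 43.6 and Igfbp4 at 127.8 ± 28.1 CPM per kb overlapped (SD, n = 2). Igfbp3 at 84.4 ± 8.4, Igf1 at 76.0 ± 8.3, Igfbp5 at 73.8 ± 5.7 and Igf2 at 63.8 ± 16.8 CPM per kb came next, and each overlapped its neighbour in this order. Igfbp6 followed at 37.3 ± 2.1 CPM per kb. Igf2r, Igfbp2 and Igf1r were the lowest at P4, with means between 11.03 and 24.4 CPM per kb in both genotypes. Igfbp5 was the lowest member in the P7 WT sample and in P7 cKO library 1, while in P7 cKO libraries 2 and 3 it lay above Igf1r.

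**Figure D1:**
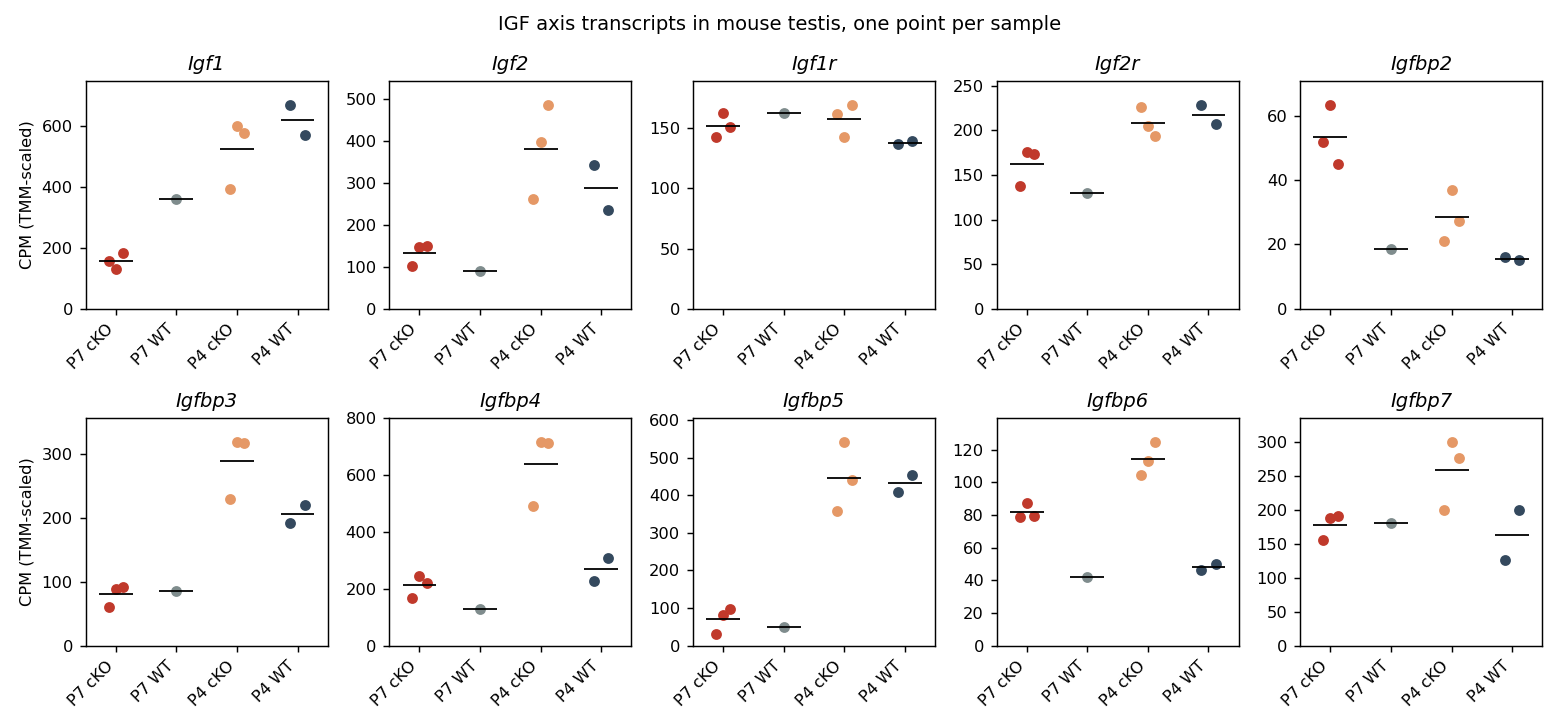
CPM (TMM-scaled, linear axes from 0, a separate scale for each gene) of the 10 members in each of the 9 samples, with a line at the group mean; the P7 WT group is a single sample. Igf1, Igf2, Igf2r, Igfbp3, Igfbp4, Igfbp5 and Igfbp6 are lower in every P7 sample of a genotype than in every P4 sample of it. P7 and P4 values do not overlap, in either direction, for 85.4% of all genes in WT and 46.1% in cKO. Igf1r is nearly level.

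The comparison of P7 with P4 asks how the axis changed over 3 days of early testis growth. In the cKO libraries both ligands and 4 of the 6 binding proteins fell, led by Igfbp5, a binding protein that also attaches to extracellular matrix, and Igfbp2 rose. In the WT libraries 5 members fell, again with Igfbp5 in front, and none rose by the test. Neither age comparison called a change of Igf1r.

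In cKO, edgeR called 7 of the 10 members at an adjusted p under 0.05 (6 lower and 1 higher), where 29.2% of all tested genes were called, 14.7% lower and 14.5% higher. The median log2 fold change of the members was -1.03, beside 0.00 over all genes. In WT it called 5 members, all lower, where 21.8% of all genes were called, 9.97% lower and 11.8% higher. The median of the members was -0.77, beside -0.03 over all genes. The P7 and P4 values of 9 members did not overlap in WT, where 85.4% of all genes did not overlap, and those of 9 members did not overlap in cKO, where 46.1% of all genes did not.

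Igfbp5 was at 31.4, 82.0 and 98.0 CPM in P7 cKO, against 357, 542 and 440.5 CPM in P4 cKO. In WT it was at 49.8 CPM at P7, against 408 and 456 CPM at P4. Every P7 sample was below every P4 sample of either genotype, and P7 cKO library 1 was the lowest of all. The log2 fold change was -2.66 ± 0.36 (SE, edgeR adjusted p = 4.64e-04) in cKO, a 6.34-fold lower level, and -3.12 ± 0.60 (adjusted p = 0.0064) in WT, an 8.66-fold lower level. Both calls held in all 21 alternative analyses, and without P7 cKO library 1 the cKO value was -2.31. None of these analyses removed the P7 WT value, and leaving out a WT library did not change the cKO samples compared.

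Igfbp3, the main carrier of IGFs in blood, was at 60.2, 87.8 and 91.6 CPM in P7 cKO, against 229, 318 and 317 CPM in P4 cKO. In WT it was at 84.6 CPM at P7, against 192 and 221 CPM at P4. The P7 levels of both genotypes lay within 1 range, below all P4 levels. By edgeR its log2 fold change was -1.85 ± 0.20 in cKO (adjusted p = 1.07e-04) and -1.28 ± 0.31 in WT (adjusted p = 0.0158), and both calls held in all 21 alternatives.

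Igfbp4, a binding protein that blocks IGF action until PAPPA cleaves it, was at 167, 246 and 222 CPM in P7 cKO, against 490.1, 716 and 714 CPM in P4 cKO. In WT it was at 128 CPM at P7, against 226 and 309 CPM at P4. All P4 cKO values stood above all other samples. The edgeR fit gave log2 fold changes of -1.597 ± 0.215 in cKO (adjusted p = 3.44e-04) and -1.07 ± 0.33 in WT (adjusted p = 0.0399). The cKO call held in all 21 alternatives, and the WT call held in 15 of 21. With length and GC offsets the WT value was -0.67 (adjusted p = 0.180).

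Igf2, the fetal growth factor expressed from the paternal allele, was at 103, 148 and 150.0 CPM in P7 cKO, against 262, 399 and 485 CPM in P4 cKO. In WT it was at 91.2 CPM at P7, against 342 and 235 CPM at P4. Each P7 sample was below each P4 sample. Igf2 fell by 1.52 ± 0.25 on the log2 scale in cKO (edgeR adjusted p = 0.00117), and its change was -1.66 ± 0.40 in WT (adjusted p = 0.0145). The WT call was lost in 1 of 21 alternatives, when P4 WT library 1 was left out (log2 fold change -1.38, adjusted p = 0.0714).

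Igf1, the ligand that growth hormone induces in liver and that Leydig and Sertoli cells also make, was at 158, 131 and 183 CPM in P7 cKO, against 394, 601 and 576 CPM in P4 cKO. In WT it was at 359.9 CPM at P7, against 667 and 572 CPM at P4. The P7 WT value lay just under the lowest P4 cKO value and above all P7 cKO values. In cKO the log2 fold change was -1.74 ± 0.20 (edgeR adjusted p = 1.55e-04), and in WT it was -0.78 ± 0.31, which did not pass (adjusted p = 0.0861). With offsets for exon length and GC content, which take out trends of the fold changes with these properties, the WT value was -1.55 (adjusted p = 0.00699). The cKO call held in all 21 alternatives.

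Igfbp2, a binding protein typical of fetal tissue, moved the other way. It was at 52.0, 63.2 and 44.9 CPM in P7 cKO, against 20.9, 37.0 and 27.3 CPM in P4 cKO, and the groups did not overlap. In WT it was at 18.5 CPM at P7, against 16.1 and 15.1 CPM at P4. The log2 fold change was 0.91 ± 0.21 in cKO (edgeR adjusted p = 0.00891, passed in all 21 alternatives) and 0.24 ± 0.32 in WT (adjusted p = 0.608). Its neighbour on the chromosome, Igfbp5, fell in the same cKO libraries.

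The remaining members moved less. Igfbp6, which prefers IGF2 as its ligand, was at 79.1, 87.4 and 79.4 CPM in P7 cKO against 104, 113 and 125 CPM in P4 cKO, a log2 fold change of -0.48 ± 0.14 (edgeR adjusted p = 0.0236, passed in 17 of 21 alternatives). In WT Igfbp6 was at 42.2 CPM at P7 against 46.2 and 50.1 CPM at P4 (-0.19 ± 0.21, adjusted p = 0.537). Igf2r was at 129.5 CPM in P7 WT against 228 and 208 CPM in P4 WT, a log2 fold change of -0.75 ± 0.24 (edgeR adjusted p = 0.0438, passed in 14 of 21). In cKO the same gene was at 138, 176 and 174 CPM at P7 against 226, 204 and 194 CPM at P4, again without overlap, but the change of -0.36 ± 0.15 did not pass (adjusted p = 0.103). Igfbp7, which binds IGFs weakly, was at 156, 189 and 191 CPM in P7 cKO and 181 CPM in P7 WT. Its change with age was -0.54 ± 0.21 in cKO (adjusted p = 0.0748) and 0.15 ± 0.31 in WT (adjusted p = 0.762). Igf1r stayed between 136 and 169 CPM over all 9 samples, a highest-to-lowest ratio of 1.24, with age changes of -0.05 ± 0.14 in cKO (adjusted p = 0.810) and 0.24 ± 0.21 in WT (adjusted p = 0.430).

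Markers of several somatic cells were lower at P7 as well. The 10 interstitial stroma markers, which include Pdgfra, Dcn and Col1a1, summed to 3579–6431 CPM in P7 cKO against 11404–16038 CPM in P4 cKO, and 10 of 10 were called lower with a median log2 fold change of -1.58. In WT they summed to 6455 CPM at P7 against 10483–12408 CPM at P4, and 3 of 10 were called lower with a median of -0.89. The 8 endothelial markers summed to 125–178 CPM in P7 cKO against 352–382 CPM in P4 cKO (7 of 8 lower), and to 159 CPM in P7 WT against 292–293 CPM in P4 WT (6 of 8 lower). In cKO 5 of 8 Leydig, 6 of 8 macrophage and 3 of 7 peritubular myoid markers were also called lower. In WT 1 of 8, 0 of 8 and 1 of 7 were, and 2 of 8 Leydig markers were called higher. Of the 10 Sertoli markers, 3 were called higher and 2 lower in cKO, with a median log2 fold change of 0.015. In WT 3 Sertoli markers were called higher and 1 lower, with a median of 0.016. Germ cell markers were higher at P7, 10 of 12 in cKO and 9 of 12 in WT. The part of these cell types in the fall of the members was not tested. The 10 members had median log2 fold changes of -1.03 in cKO and -0.77 in WT, with Igfbp5 lowest at -2.66 and -3.12.

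Scaling by library totals in place of TMM gave 3907 higher and 1818 lower genes in cKO, against 2663 higher and 2709 lower, with a median of all genes of 0.18. Under it Igfbp6 was no longer called (-0.30, adjusted p = 0.121), and the other 6 members called in cKO were. Leaving out P7 cKO library 1 left 7 members called in cKO and 6 in WT, where the calls over all genes were 30.4% in cKO and 34.5% in WT. Single libraries moved the WT count. It was 2 without P4 WT library 1, when 6.51% of all genes were called in WT. It was 3 without P4 WT library 2, P7 cKO library 3 or P4 cKO library 2, when 20.3%, 19.8% and 17.1% of all genes were.

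**Figure D2:**
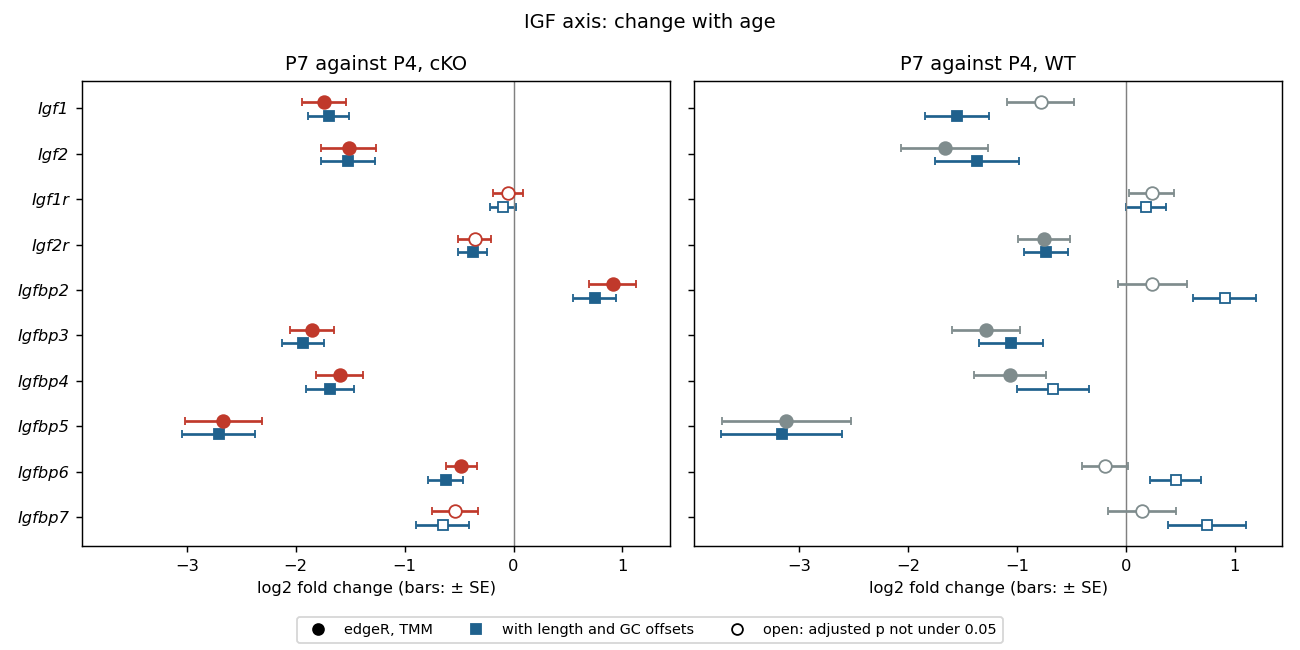
log2 fold change (horizontal axis, with bars of ± SE) of P7 against P4 for the 10 members, in cKO on the left and in WT on the right; circles are edgeR with TMM factors, squares the same test with offsets for exon length and GC content, and filled symbols have an adjusted p under 0.05. Igfbp5 lies farthest to the left in both panels, and Igfbp2 is the filled symbol on the right of 0 in cKO.

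The comparison of cKO with WT at P4 asks whether the genotype label went with another state of the axis before the later age. Igfbp4 and Igfbp6 rose in P4 cKO, by 2.39-fold and 2.37-fold, and no member fell by the test. All 6 binding proteins had a positive log2 fold change, with a median of 0.77 beside 0.00 over all genes, while the ligands and receptors were spread on both sides of 0. The test called 2 of the 10 members, both higher, where 8.96% of all genes were called, 4.84% higher and 4.13% lower.

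Igfbp4 was at 490.1, 716 and 714 CPM in P4 cKO, against 226 and 309 CPM in P4 WT, and the groups did not overlap. The log2 fold change was 1.26 ± 0.24 (edgeR adjusted p = 0.0192). Igfbp6 was at 104, 113 and 125 CPM in P4 cKO, against 46.2 and 50.1 CPM in P4 WT. Both groups were tight and far apart, and with a log2 fold change of 1.25 ± 0.16 (adjusted p = 0.0104) Igfbp6 ranked 12 of 18419 genes by p. With length and GC offsets the values were 1.20 for Igfbp4 (adjusted p = 0.0334) and 0.94 for Igfbp6 (adjusted p = 0.0318).

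Igfbp2 was at 20.9, 37.0 and 27.3 CPM in P4 cKO, against 16.1 and 15.1 CPM in P4 WT, a log2 fold change of 0.87 ± 0.25 that missed the threshold (edgeR adjusted p = 0.0505) and passed in 8 of 21 alternatives. Igfbp7 was at 200.4, 300.5 and 277 CPM in P4 cKO, against 126 and 200.6 CPM in P4 WT, with overlap and a log2 fold change of 0.67 ± 0.24 (adjusted p = 0.0948). Igfbp3 was higher in each P4 cKO sample than in each P4 WT sample, with a log2 fold change of 0.48 ± 0.22 (adjusted p = 0.174). Igfbp5 was nearly level at 0.05 ± 0.38 (adjusted p = 0.943). Of the ligands, Igf2 had 0.40 ± 0.27 (adjusted p = 0.346) and Igf1 had -0.24 ± 0.22 (adjusted p = 0.482). Igf1r had 0.19 ± 0.16 (adjusted p = 0.439) and Igf2r had -0.06 ± 0.17 (adjusted p = 0.829).

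The values of 5 members did not overlap between the genotypes at P4, where 49.7% of all genes did not. Markers of some somatic cells were higher in the same P4 cKO libraries. Leydig markers summed to 1193–1313 CPM in P4 cKO against 908–942 CPM in P4 WT (3 of 8 called higher, none lower), and Sertoli markers to 4580–5187 CPM against 2936–3704 CPM (4 of 10 called higher, none lower). Peritubular myoid markers summed to 1536–1767 CPM in P4 cKO against 1548–1574 CPM in P4 WT (3 of 7 called higher, none lower), and endothelial markers to 352–382 CPM against 292–293 CPM (1 of 8 higher, none lower). Germ cell markers summed to 260–266 CPM in P4 cKO against 301–412 CPM in P4 WT (2 of 12 called lower, none higher, with a median log2 fold change of -0.29). Macrophage markers summed to 89–146 CPM against 85 CPM (3 of 8 higher), and stroma markers to 11404–16038 CPM against 10483–12408 CPM (none of 10 called). Median log2 fold changes were 1.26 for Leydig, 1.04 for macrophage and 0.54 for Sertoli markers. For stroma, peritubular myoid and endothelial markers they were 0.47, 0.44 and 0.18. The part of these cell types in the Igfbp4 and Igfbp6 values was not tested. Leaving out library 2 or library 3 of P4 cKO, or library 1 of P4 WT, left 0 members called, when 13, 11 and 2 genes of the whole table were called. The log2 fold changes were then 1.16, 1.16 and 1.05 for Igfbp4 and 1.24, 1.17 and 1.19 for Igfbp6. Leaving out library 1 of P7 cKO gave 4, when Igfbp2 and Igfbp7 also passed and 22.7% of all genes were called. Scaling by library totals in place of TMM kept both calls but gave 528 higher and 1544 lower genes over the whole table, against 891 higher and 760 lower, with a median of all genes of -0.16. With length and GC offsets the split was 1016 higher and 389 lower.

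At P7, with a single WT sample, Igfbp2 and Igfbp6 were higher and Igf1 was lower in cKO. The call rule found 3 of the 10 members, 2 higher and 1 lower, where 17% of all genes were called, 7.26% higher and 9.72% lower. The median log2 fold change of the members was 0.41, beside 0.08 over all genes.

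Igfbp2 was at 52.0, 63.2 and 44.9 CPM in P7 cKO, against 18.5 CPM in P7 WT, a log2 fold change of 1.53 ± 0.33 (edgeR adjusted p = 0.0142). Igfbp6 was at 79.1, 87.4 and 79.4 CPM in P7 cKO, against 42.2 CPM in P7 WT, a log2 fold change of 0.96 ± 0.21 (adjusted p = 0.0142). Igf1 was at 158, 131 and 183 CPM in P7 cKO, against 359.9 CPM in P7 WT, a log2 fold change of -1.20 ± 0.26 (adjusted p = 0.0146). For each of these genes the WT value lay outside the cKO range by a wide margin, but its own spread is not known and was taken from the other groups. Germ cell markers summed to 1142–1253 CPM in P7 cKO against 1667 CPM in P7 WT, and stroma markers to 3579–6431 CPM against 6455 CPM. Of the 12 germ cell markers 1 was called higher and 1 lower, with a median log2 fold change of 0.05. Of the 10 stroma markers 1 was called higher and none lower, with a median of -0.51. Median log2 fold changes were -0.13 for Sertoli, -0.09 for Leydig and 0.25 for peritubular myoid markers. For endothelial and macrophage markers they were -0.02 and 0.10, and for the 2 erythroid markers tested the median was -3.14. The part of these cell types in the P7 values was not tested.

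These P7 calls did not hold when fold changes were adjusted for exon length and GC content. Igf1 became -0.09 (adjusted p = 0.903), Igfbp2 0.37 (adjusted p = 0.591) and Igfbp6 -0.14 (adjusted p = 0.820), and 2 genes of the whole table passed in place of 3129. The members called sit at opposite ends of both scales. Igf1 has 8149 exon bases and a longest transcript of 38.0% GC, at the percentiles 95.4 and 2.16 of the tested genes. Igfbp2 has 1415 bases and 62.1% GC, and Igfbp6 has 1289 bases and 60.7% GC, at GC percentiles of 98.1 and 96.6. Whether the trend with length and GC is technical was not tested. Scaling by library totals kept all 3 calls and gave 1744 higher and 1402 lower genes, against 1338 higher and 1791 lower. With the P7 libraries fitted alone edgeR called no member and 0 of 17832 genes, of which 4834 had an unadjusted p under 0.05. Igf1 was then at -1.23 (adjusted p = 0.0663), Igfbp2 at 1.4997 (adjusted p = 0.0674) and Igfbp6 at 0.93 (adjusted p = 0.0776).

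The other members were not called at P7. Igfbp4 had a log2 fold change of 0.73 ± 0.31 (edgeR adjusted p = 0.126), Igf2 0.55 ± 0.36 (adjusted p = 0.302), Igfbp5 0.50 ± 0.49 (adjusted p = 0.508) and Igf2r 0.33 ± 0.22 (adjusted p = 0.327). Igf1r, Igfbp3 and Igfbp7 had -0.10, -0.08 and -0.02. The values of 7 members did not overlap between the genotypes, where 70.8% of all genes did not. Without P7 cKO library 1, 5 members passed, with Igfbp4 at 0.87 (adjusted p = 0.0326) and Igfbp5 at 0.85 (adjusted p = 0.0277) added, and 26.9% of all genes were called, against 17% with all samples. Without P7 cKO library 2, 2 passed and Igf1 did not (adjusted p = 0.0526), and 5.27% of all genes were called.

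**Figure D3:**
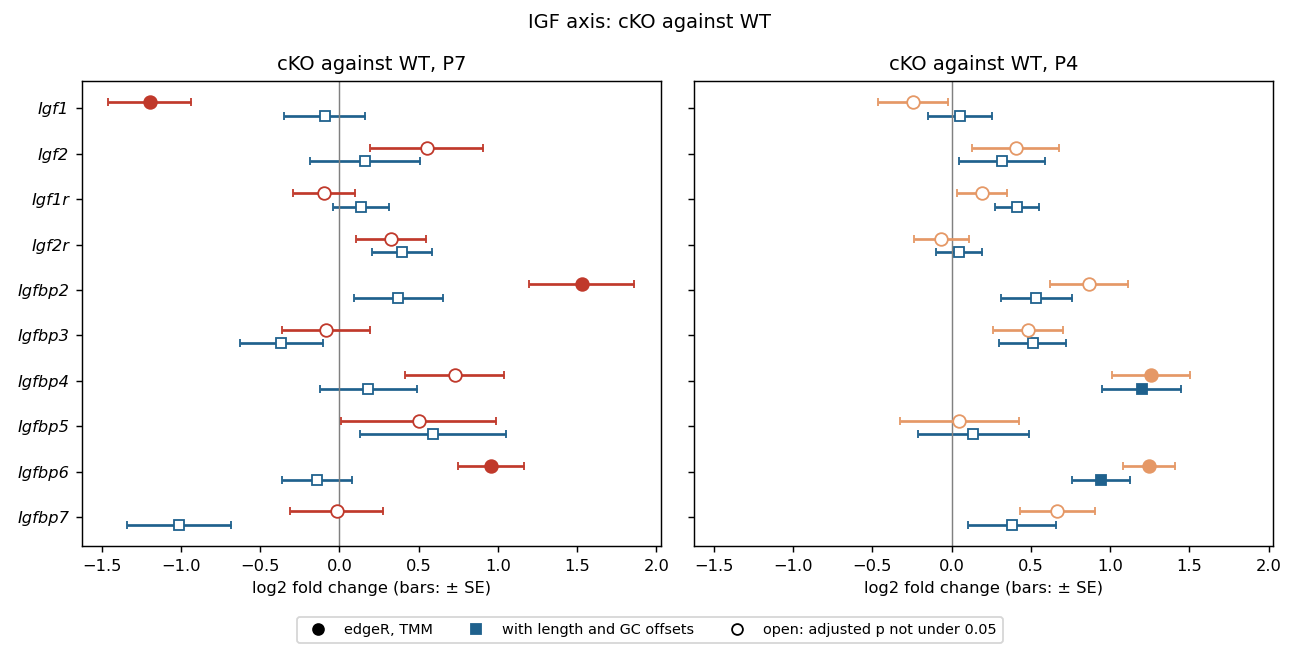
log2 fold change (horizontal axis, with bars of ± SE) of cKO against WT for the 10 members, at P7 on the left and P4 on the right, with the symbols of the plot of age effects. At P4 Igfbp4 and Igfbp6 are filled with and without the offsets, whereas at P7 no square is filled.

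Igfbp6 was the member called higher in cKO at both ages, with log2 fold changes of 0.96 at P7 and 1.25 at P4. With length and GC offsets these were -0.14 (adjusted p = 0.820) at P7 and 0.94 (adjusted p = 0.0318) at P4. The difference between the genotype effects at P7 and at P4 was tested as an interaction, and edgeR called 0 of the 10 members and 0 of all genes (0% called). At an unadjusted p under 0.05 it gave 1 member, Igf1, and 4619 genes. DESeq2 and limma-voom also called 0 members, and DESeq2 called 1665 genes. The Igf1 interaction was -0.95 ± 0.35 (edgeR adjusted p = 0.132), and with length and GC offsets it was -0.15 (adjusted p = 0.815). In the fit of 9 samples the age effects of cKO and of WT therefore were not shown to differ for any member.

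The balance of the axis can be read from sums per length of exon, given here as descriptions. The 6 binding proteins summed to 336, 436 and 411 CPM per kb in P7 cKO, 299 CPM per kb in P7 WT, 649.7, 927 and 891 CPM per kb in P4 cKO and 407 and 531 CPM per kb in P4 WT. Every P4 cKO sum was above every P4 WT sum, and the P7 sums of cKO were above the P7 WT sum. These sums carry no length and GC offsets. With those offsets the median log2 fold change of the 6 at P7, cKO against WT, was 0.02 in place of 0.61. Over all genes it was then 0.02. At P4 the median of the 6 was 0.52 in place of 0.77, beside 0.04 over all genes. Igfbp5 made up 1.596%, 3.21% and 4.07% of the sum in P7 cKO, 2.85% in P7 WT, 9.40%, 9.99% and 8.45% in P4 cKO and 17.1% and 14.7% in P4 WT. Igfbp2 made up 10.9%, 10.3% and 7.72% in P7 cKO, 4.37% in P7 WT, 2.28%, 2.83% and 2.17% in P4 cKO and 2.79% and 2.01% in P4 WT. The share of Igfbp5 was below that of Igfbp2 in each P7 sample and above it in each P4 sample.

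The ratio of Igf1 to Igf2 per length was 0.85, 0.49 and 0.68 in P7 cKO and 2.19 in P7 WT. It was 0.83, 0.84 and 0.66 in P4 cKO and 1.08 and 1.35 in P4 WT. Igf2 was thus the more abundant ligand transcript in all 6 cKO samples and Igf1 in all 3 WT samples. Neither ligand differed by the test at P4, and the Igf1 value at P7 rests on a call that was lost with the offsets. Igf2 shares 98 exon bases with the antisense gene Igf2os, and Igfbp7 shares 89 with Polr2b. The strand setting of the counting is not given in the sources used here, so reads of those stretches cannot be assigned. The other 8 members share no exon base with another gene.

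**Figure D4:**
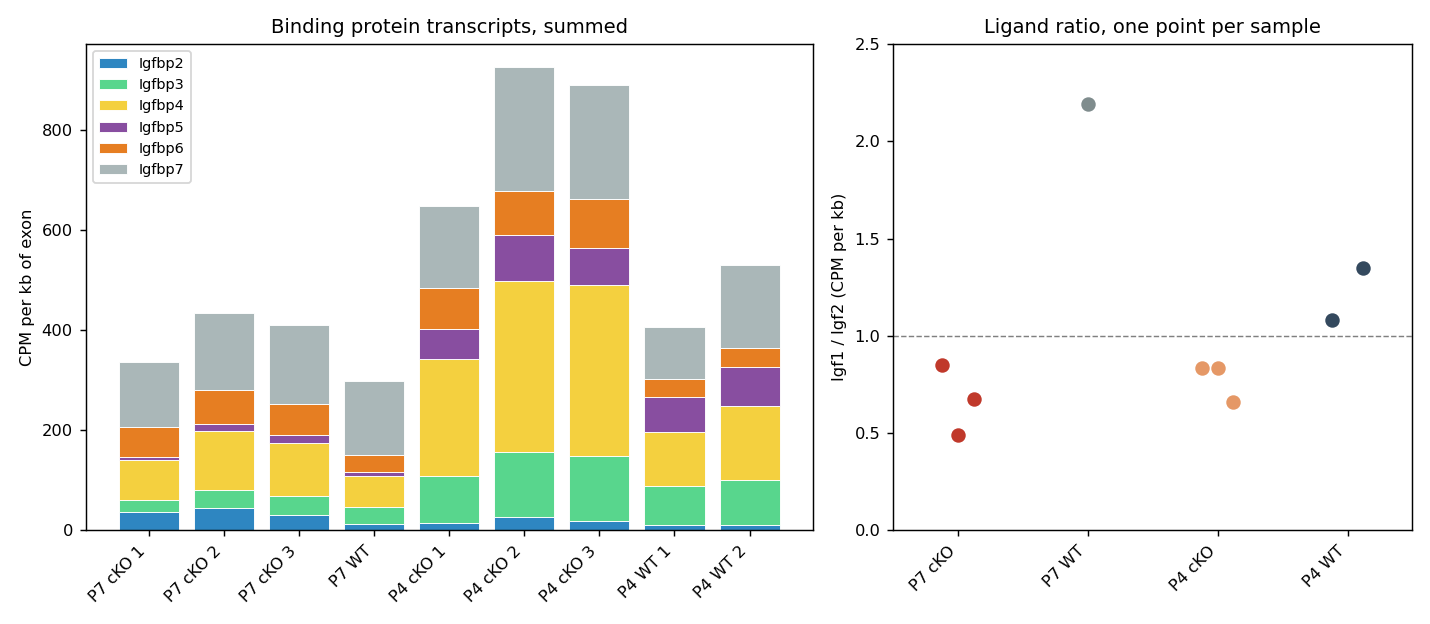
Left, CPM per kb of exon of the 6 binding proteins stacked for each of the 9 samples; right, the ratio of Igf1 to Igf2 per length, 1 point per sample, with a dashed line at equal levels. The stacks of P4 cKO are the highest at 649.7 to 927 CPM per kb, and all cKO ratios lie below the dashed line.

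A list of 51 other genes of the pathway was read beside the members, 48 of which passed the filter (Igfbp1, Igfals and Ins1 did not). Among them, 28 were called between P7 and P4 in cKO, 9 higher and 19 lower, where 29.2% of all genes were called. In WT 14 were called, 6 higher and 8 lower, where 21.8% of all genes were. The genotype comparisons called 12 at P7, 2 higher and 10 lower, where 17% of all genes were called, and 6 at P4, 3 higher and 3 lower, where 8.96% were. Their median log2 fold changes were -0.18, 0.01, -0.25 and -0.0036 in that order. Of the 8 genes of the Igf2 locus and its regulators, 7 were called in cKO with age, 6 of them lower.

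In cKO with age, the RNA-binding protein genes Igf2bp1 and Igf2bp2 moved apart, at 1.49 ± 0.18 (edgeR adjusted p = 2.09e-04) and -1.41 ± 0.18 (adjusted p = 2.71e-04), and they did so in WT at 1.06 ± 0.26 (adjusted p = 0.0162) and -1.20 ± 0.28 (adjusted p = 0.0136). Mtor, the kinase of the growth pathway below AKT, rose by 1.38 and its partner Rptor by 0.63 in cKO, as did Igfbpl1 by 1.73. Irs1, an adaptor of both the IGF1 and insulin receptors, fell by 1.30, the PI3K subunit gene Pik3r1 by 1.18 and Hmga2, a chromatin protein that raises Igf2bp2 expression, by 2.61. In WT, Foxo1 rose by 1.74 and Stc1, an inhibitor of PAPPA, by 1.75. Socs2, a brake on growth hormone signalling, fell by 1.65, Pappa2 by 2.39 and Igf2os by 1.70 in WT. Pappa2 and Igf2os were scarce, at 0.49 and 1.44 CPM in P7 WT against means of 2.56 and 4.68 CPM in P4 WT. Reads of the exon bases that Igf2os shares with Igf2 cannot be assigned.

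H19, the imprinted RNA 72621 bases from Igf2 that shares its enhancers, was lower at P7, like Igf2. It was at 164, 337 and 312 CPM in P7 cKO, 149.8 CPM in P7 WT, 709, 1143 and 1517 CPM in P4 cKO and 505 and 540.5 CPM in P4 WT. All P7 values were below all P4 values. The log2 fold change of P7 against P4 was -2.05 ± 0.31 in cKO (edgeR adjusted p = 9.22e-04) and -1.80 ± 0.50 in WT (adjusted p = 0.0271). Between genotypes H19 was not called at P4 (1.10 ± 0.35, edgeR adjusted p = 0.0706) or at P7 (0.85 ± 0.45, adjusted p = 0.207). Grb10, an imprinted adaptor that restrains IGF1R signalling, had -1.81 ± 0.32 in cKO with age (adjusted p = 0.00243) and -0.27 ± 0.48 in WT (adjusted p = 0.709), and the interaction was -1.54 ± 0.56 (adjusted p = 0.132).

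Between genotypes at P4, Akt2, Irs2 and Akt1 rose by 1.06, 0.80 and 0.71 and Socs2, Pik3cb and Rictor fell by 1.00, 0.83 and 0.77 in cKO (adjusted p from 0.021 to 0.0426). At P7, Pik3r2 rose by 1.30 and Rptor by 0.71, and Sos1, Irs1 and Ctcf fell by 0.91, 0.89 and 0.86 in cKO. The insulin receptor gene Insr fell by 0.77 at P7 (adjusted p = 0.0262) and had -0.51 at P4 (adjusted p = 0.0707). Pappa, the protease that frees IGFs from IGFBP4, fell by 0.93 at P7 (adjusted p = 0.0381) and had -0.05 at P4 (adjusted p = 0.905). Once offsets for length and GC were used, 0 of the 48 passed at P7. At P4 the count was 14 with DESeq2, when 16.3% of all genes were called. It was 16 without P7 cKO library 1, when 22.7% of all genes were. It was 0 when library 2 or library 3 of P4 cKO was left out, when 13 and 11 of all genes were called.

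**Figure D5:**
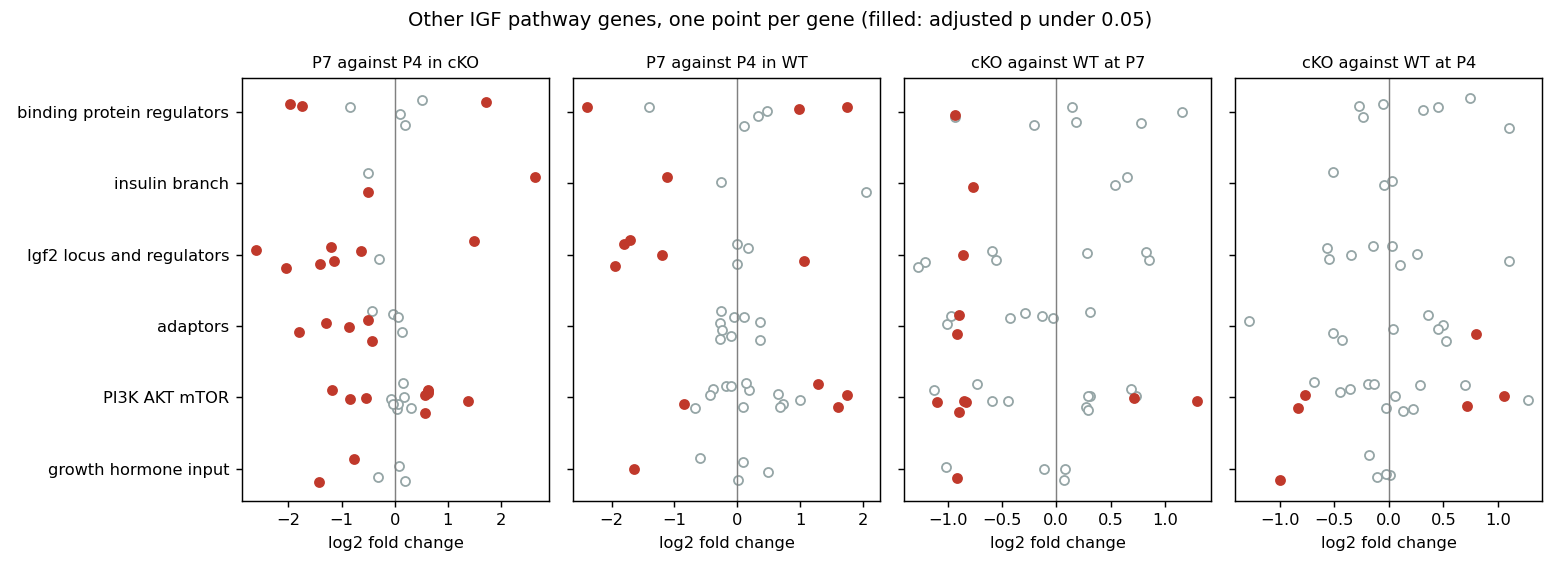
log2 fold change (horizontal axis) of the other IGF pathway genes, 1 point per gene in rows by functional group, for 4 comparisons; filled points have an adjusted p under 0.05, and the vertical position within a row carries no meaning. The panel of P7 against P4 in cKO holds 28 filled points, and the panel of cKO against WT at P4 holds 6.

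The genes whose pattern over the 9 samples was most like that of a member were found by the root mean square difference of centred log2 CPM among 13576 genes. For Igfbp5 the nearest was Sncaip at 0.19, where the distance of Igfbp5 from a flat line was 1.49. For Igfbp4 it was Tubb2a at 0.13, for Igfbp3 Rflnb at 0.14, for Igfbp6 Mrps34 at 0.10 and for Igfbp2 Psmb10 at 0.20. For Igf1 it was Slc16a7 at 0.21 and for Igf2 Trem2 at 0.15. Among the members themselves, Igf2 and Igfbp3 were the closest pair at 0.29, and Igfbp2 and Igfbp5 were the farthest apart at 1.96.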

How the data were processed

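RNA of whole mouse testis was sequenced in 10 libraries of 4 groups, grouped by the genotype and age in their labels. The authors deposited raw read counts per gene with exon lengths, per the file headers. The build was GRCm38 (mm10), per the submitters' processing notes, which name the tools Subread 2.0.6, featureCounts, STAR 2.7.11a, SAMtools 1.6, Trim Galore 0.6.10, MultiQC 1.14 and FastQC 0.12.1. Whether counting used strand, and how multi-mapping reads were handled, is not given in the sources used here.

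Totals were 28.8 to 41.8 M reads per library, and each member had at least 486 reads in every sample, so the spread between samples limited precision more than counting did. Since 67.8% to 80% of counts under 50 were even, which counting each mate of a fragment would give, sampling noise alone allowed a chi-square per degree of freedom of up to 2. The P7 WT libraries, at 1.98, were summed as 1 sample. No label says that replicates came from separate animals, so the p-values reflect only how these samples varied, and that variation may be technical.

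TMM factors scaled the counts, filterByExpr removed low ones, and the test was that of edgeR 4.0.16 under R 4.3.3 (quasi-likelihood, robust, all groups in a single fit, 5 residual degrees of freedom). P-values were adjusted by Benjamini-Hochberg over 18419 genes, and the threshold was 0.05. The SE was obtained as the size of the log2 fold change over the root of the F statistic. Exon length and GC content (of the longest GENCODE transcript, known for 97.7% of tested genes) entered offsets as splines with 4 degrees of freedom. Alternatives used DESeq2 1.42.0, limma 3.58.1 (voom), other scalings and filters, other sample sets and each library left out. Of the other pathway genes the text names up to 4 per direction and comparison with the smallest p, and H19, Insr, Pappa and Grb10 throughout, and for some members the gene nearest in pattern; 1 pathway gene that this rule picks is not reported here. The members, gene lists and tests were chosen with earlier results of these data known. Promoters were read from RefSeq (GRCm38.p6) by symbol for all 10 members.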

Additional observations from a re-analysis of the deposited data

How the results depend on the processing

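The test was repeated under 21 alternatives for each comparison (20 for the interaction). No alternative removed the P7 WT value, because leaving out a P7 WT library kept the other, which differed from it by counting noise. Leaving out a library of a group not compared kept all the compared libraries. Of the counts of called members and of called pathway genes, 169 stayed within 1.5 times the reported count and 39 did not; where a count moved, the cause was not tested unless fewer samples made it. Of the values of single members, 952 kept their direction and side of the threshold. The reported counts of called members were 7 (P7 against P4 in cKO), 5 (P7 against P4 in WT), 3 (cKO against WT at P7), 2 (cKO against WT at P4) and 0 (interaction). The replicate numbers were not taken as pairs. Deviations from the group means of same-numbered libraries correlated at 0.17 and -0.11 for P4 cKO with P4 WT. They correlated at 0.04, -0.19 and 0.16 for P7 cKO with P4 cKO, and at 0.34 and 0.26 for P7 cKO with P4 WT. No comparison sets P7 cKO against P4 WT, but the interaction holds both, with the same sign. With all 10 libraries and a replicate block, 4 members were called in cKO against WT at P4 and 1 in the interaction. The pathway counts with the block were 11 at P4, 28 at P7, 23 in WT with age and 18 in the interaction. Of all genes, 15.5%, 42.3%, 44.4% and 24.5% were called in the same order. With all 10 libraries and no block, 1 member was called in the interaction (Igf1). The pathway counts were 13 at P4, 28 at P7 and 8 in the interaction, where 16.4%, 39.2% and 17.6% of all genes were called. DESeq2 called 14 pathway genes at P4 and 4 in the interaction, where it called 16.3% and 9.04% of all genes. With no filter 2 pathway genes and 1.98% of all genes were called in the interaction. With the compared libraries fitted alone, 14 pathway genes were called at P4, where 19.1% of all genes were. At P7 the same setting called 0 members, 0 pathway genes and 0% of all genes. Length offsets gave 1 member (Igfbp2) and 4 pathway genes at P7, and length and GC offsets gave 0 and 0. Of all genes these settings called 12.9% and 0.0109% at P7. Leaving out each library in turn gave 6 to 8 called members in cKO with age, 2 to 6 in WT with age, 2 to 5 at P7, 0 to 4 at P4 and 0 in the interaction. The pathway counts were then 18 to 28, 3 to 21, 1 to 19, 0 to 16 and 0 to 4 in the same order. Where this left a group with 1 sample, its spread was taken from the other groups. Among called values, Igfbp6 at P7 reversed, to -0.14 with length and GC offsets. The other values that changed sign were uncalled. With library totals Igfbp5 was -0.11 at P4, Igf1r 0.0095, Igfbp3 0.0228 and Igfbp7 0.0898 at P7, and Igf1r 0.13 in cKO with age. Igfbp7 at P7 was 0.0125 with a stricter filter and 0.00064 with 10 libraries and no block. Igfbp5 at P4 was -0.12 with the replicate block. Length offsets gave 0.11 for Igf2r at P4, 0.28 for Igf1r at P7 and 0.021 for Igfbp6 in WT with age. Length and GC offsets gave 0.0542 for Igf1 and 0.0445 for Igf2r at P4, 0.14 for Igf1r at P7, 0.46 for Igfbp6 in WT with age, and interactions of -0.15 for Igf2 and -0.16 for Igfbp2. Over the libraries left out in turn, Igfbp3 at P7 ran from -0.19 to 0.0841, Igfbp7 at P7 from -0.0685 to 0.0721, Igfbp5 at P4 from -0.12 to 0.17, Igf2r at P4 from -0.14 to 0.0029, Igfbp7 in WT with age from -0.16 to 0.52 and the Igf2 interaction from -0.14 to 0.39.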
